A study of Sus scrofa with 30 samples.

Results

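A group of 24 transcripts from 24 genes stood highest in the sow mammary gland at peak lactation (PL), out of 29303 annotated messenger RNA transcripts and 61773 transcripts in all. A transcript belonged to the group when 3 conditions held. Its lowest PL value lay above every one of the 12 values of the other stages, its PL mean was 10 units or more, and its PL mean was 4 or more times the next highest stage mean. Transcripts of the caseins, LALBA, WAP, SAA3, LBP, TCN1, EGF and LEP were set aside by name. This removed 7 transcripts (3 of SAA3, 2 of WAP, 1 of LBP and 1 of TCN1) from the 31 that met the conditions. The members were thus chosen by their values in PL and the other stages, so the height of these transcripts at PL is described below and was not tested. Non-overlap alone held for 178 of the 29303 transcripts (0.607%), and 81 of these had a PL mean of 10 units or more. With the same 3 conditions turned to each of the other stages, 1 transcript stood highest at mid-gestation (MG), 2 at late gestation (LG), 1 at early lactation (EL) and 2 on day 2 after weaning (W2).

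Milk is made by luminal secretory cells of the alveoli, and contractile myoepithelial cells around them press it out when oxytocin arrives. The gland also secretes defence proteins, some of them known as acute-phase proteins because the liver releases them into blood during inflammation. Milk fat leaves the secretory cell as droplets, and cholesterol synthesis is held in check by sterol sensors in the endoplasmic reticulum.

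The libraries came from parenchyma of the third gland on the left side of multiparous, half-sibling Danish Landrace × Yorkshire sows, 1 sow per library by the stated design, and no treatment is named. MG was day 70 and LG day 110 of gestation, EL was day 2 and PL day 10 postpartum, and W2 was day 2 post-weaning. Of 6 samples per stage, 3 differed from each other by a median of at most 1.80% to 1.85%, whereas pairs of the other 3 differed by 19.6% to 59.8%. The mean of the first set differed from that of the second by a median of at most 0.741%, over transcripts with a mean of 10 units or more. For the 24 members this median was 0.267% at PL and 2.14% to 4.73% at the other stages. Only the second set was therefore counted (n = 3 per stage, 15 samples). Stages follow the sample titles, since the records of samples titled EL carry mid-gestation as their stage name and those titled MG carry early lactation. PL does not carry this conflict, but wherever EL or MG is named below the stage rests on the titles. CSN2, beta-casein, stood at 33157, 48522 and 58718 units in the samples titled EL and at 16977, 4862 and 7615 in those titled MG, and CSN3, kappa-casein, at 9885, 26420 and 18886 against 6961, 2969 and 4041. Both caseins were higher in every sample titled EL than in any titled MG. Values are TPM (called units), already divided by transcript length, and reads per transcript were not used here, so precision was taken from the spread between samples.

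PL 2 stood apart from the other libraries. Its 20 most abundant transcripts took 59.9% of all units, against 25.6% to 43.0% in the other 14 counted samples. It listed 34065 transcripts above 0, where the others listed 39524 to 46114. The median transcript with a mean of 10 units or more was 0.62 lower at PL than in the other stages on the log2 scale, and 0.08 lower after median ratio scaling. The luminal markers EPCAM, KRT8, KRT18 and KRT19 were present in every PL sample, with EPCAM at 531, 607 and 633 units. All 10 luminal markers together were less even, at 971 units in PL 2, 2175 in PL 3 and 2008 in PL 6. They summed to 1455 to 2378 units in the samples of other stages, so PL 2 was lowest of all. The 24 transcripts together took 0.441% of all units in PL 2, 1.03% in PL 3 and 1.02% in PL 6, and 0.0354% to 0.191% in each of the 12 other samples. In bulk tissue, a change in the number of cells of a type and a change in the RNA of each cell cannot be told apart.

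**Figure D1:**
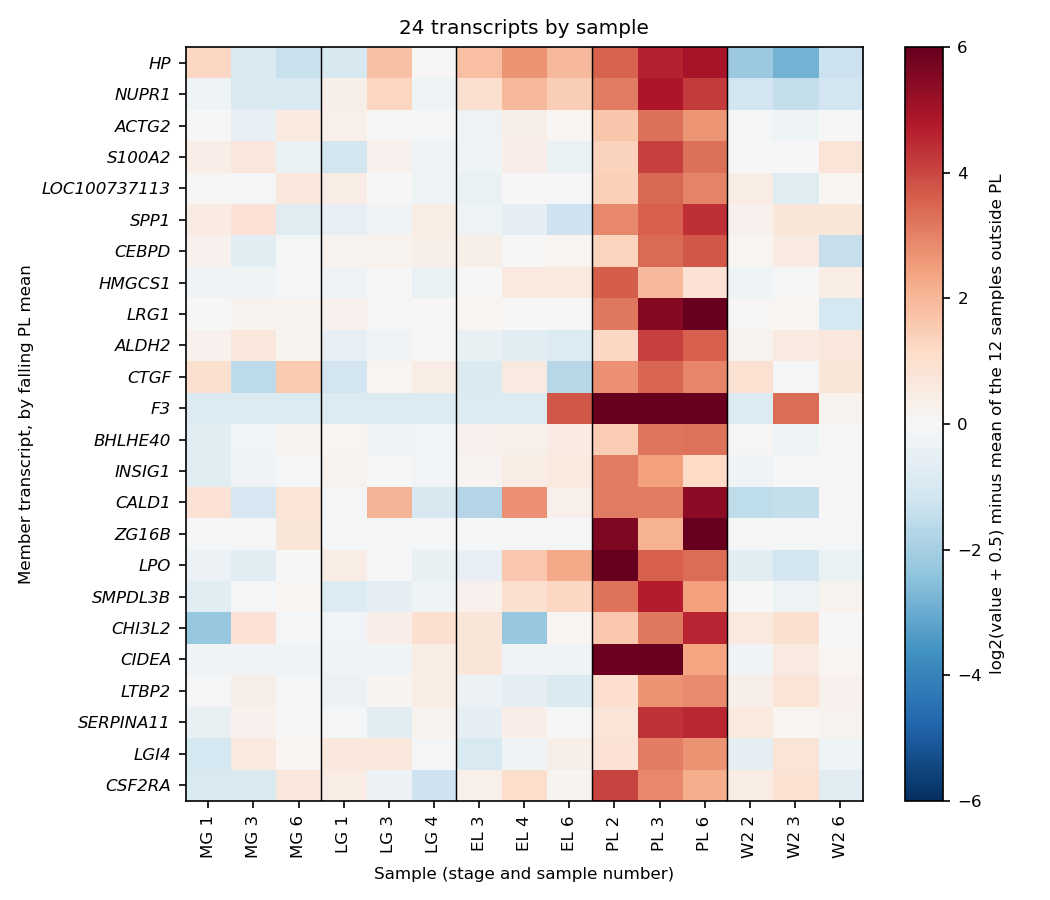
Each row is 1 of the 24 transcripts and each column 1 counted sample. Colour is log2(value + 0.5) minus the mean of the 12 samples outside PL, and is capped at 6. The PL columns are red in every row by the way the rows were chosen, and HP and NUPR1 also have pale red cells at EL and blue cells at W2.

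Acute-phase and defence transcripts included the most abundant of the group. HP, haptoglobin, which binds free hemoglobin in blood, was represented by NM_214000.2 on chromosome 6 (Sscrofa11.1, 14980382 to 14985245). Its values were 2160, 4535 and 5714 units in PL 2, PL 3 and PL 6, and 651, 1213 and 722 in EL. Gestation samples ranged from 72.4 to 619 units and W2 samples from 25.1 to 74.4. The PL mean of 4136 ± 1810 units (SD, n = 3) was 4.80 times that of EL. HP thus stood highest at PL and second at EL.

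LRG1, a leucine-rich glycoprotein of the acute phase (XM_003123071.4, chromosome 2, 74300598 to 74303117), had the widest gap among transcripts seen in every sample. It held 28.8, 150 and 244 units at PL. All 12 other samples lay between 1.10 and 3.37 units, so that the PL mean was 44.4 times the next stage mean, that of MG. CEBPD, a transcription factor of the cytokine response (XM_005663091.2, chromosome 4, 79872863 to 79874481), stood at 48.4, 209 and 262 units at PL and at 6.89 to 27.3 elsewhere. SERPINA11, a serpin (XM_001928472.7, chromosome 7, 115666071 to 115681890), stood at 1.53, 23.8 and 26.9 units at PL and at 0.242 to 1.27 elsewhere. In these 3 transcripts PL 2 was the lowest PL sample, and for SERPINA11 it was only just above the highest sample of another stage.

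LPO, lactoperoxidase, an antibacterial enzyme of milk (XM_021067272.1, chromosome 12, 34525113 to 34554031), had the opposite order within PL. It reached 74.7 units in PL 2 and 13.1 and 11.1 in PL 3 and PL 6. EL held 0.295, 2.97 and 4.90 units, and no sample of MG, LG or W2 exceeded 1.02. ZG16B, a secreted lectin-like protein (XM_021086744.1, chromosome 3, 39334122 to 39336864), was listed at 0 in 11 of 12 samples outside PL and at 0.369 in MG 6. At PL it stood at 25.2, 1.72 and 121 units, the widest spread within PL of the 24. CHI3L2, a chitinase-like protein (XM_003481491.4, chromosome 4, 109081543 to 109099172), stood at 6.90, 21.1 and 56.7 units at PL, and at 0 to 4.21 elsewhere.

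SMPDL3B, a membrane-anchored phosphodiesterase that dampens Toll-like receptor signalling (XM_003127737.5, chromosome 6, 85060639 to 85084483), stood at 19.6, 54.7 and 11.1 units at PL. It held 2.08, 3.63 and 4.54 units at EL, 0.708 to 1.78 in gestation and 1.22 to 1.94 at W2. CSF2RA, the alpha chain of the GM-CSF receptor (XM_021081383.1, with no chromosome assigned), stood at 21.0, 8.98 and 5.34 units at PL and at 0.0486 to 2.16 elsewhere. The 3 PL samples of these transcripts did not rank alike, since PL 3 was highest for SMPDL3B and PL 2 for CSF2RA.

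Stress and regulatory transcripts were led by NUPR1, a small chromatin protein induced by cell stress (XM_021088038.1, chromosome 3, 18402781 to 18404411). Its values were 690, 2291 and 1491 units at PL, 155, 307 and 221 at EL, 104, 198 and 67.6 at LG, 67.3, 43.6 and 42.8 at MG, and 35.3, 29.4 and 36.1 at W2. Stage means of NUPR1 therefore ran W2, MG, LG, EL, PL from low to high, with EL and LG overlapping. BHLHE40, a transcriptional repressor of the circadian clock (NM_001245010.1, chromosome 13, 61526121 to 61533686), stood at 29.7, 96.8 and 99.5 units at PL and between 6.11 and 14.3 in the other 12 samples. ALDH2, the mitochondrial aldehyde dehydrogenase (NM_001044611.2, chromosome 14, 39902317 to 39933113), stood at 22.9, 169 and 116 units at PL and at 5.06 to 15.2 elsewhere. Stage means outside PL lay between 8.82 and 12.9 units for BHLHE40 and between 5.89 and 13.3 for ALDH2.

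Contractile, basal and matrix transcripts made up a further set. ACTG2, gamma smooth muscle actin (XM_021087371.1, chromosome 3, 69097366 to 69121542), stood at 424, 1304 and 848 units at PL. The 4 other stage means lay between 120 and 143 units, and single samples between 93.8 and 202. S100A2, a calcium-binding protein of basal epithelium (XM_001929556.5, chromosome 4, 96073496 to 96076825), stood at 66.9, 446 and 256 units at PL and at 11.5 to 43.9 elsewhere. LOC100737113, a protein-coding gene without an assigned name (XM_003482984.3, chromosome 12, 21024395 to 21029875), stood at 83.1, 338 and 246 units at PL and at 18.4 to 47.7 elsewhere. In each of these 3, PL 3 was highest, PL 6 next and PL 2 lowest. NUPR1, ALDH2, CTGF, F3 and LGI4 had the same order, so it ties LOC100737113 to no set.

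The 6 measured markers of myoepithelial cells summed to 880, 2042 and 2165 units in PL 2, PL 3 and PL 6 and to 953 to 1816 elsewhere. None of the 6 was called. Their median difference (log2 of gene sums, PL minus the other 4 stages) was 0.18, against -0.50 for all genes. After median ratio scaling it was 0.73, against -0.06. KRT5 and CNN1 stood at 57.3 and 124 units in PL 2, at 273 and 357 in PL 3, and at 305 and 276 in PL 6. ACTA2, the smooth muscle actin typical of these cells, stood at 672, 1370 and 1549 units at PL, with a difference of -0.02 (log2 of gene sums, PL minus the other 4 stages). The part of myoepithelial cells in the height of ACTG2 and S100A2 was not tested.

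CTGF, a matrix-associated growth factor also named CCN2 (NM_213833.2, chromosome 1, 31674398 to 31677697), stood at 70.1, 117 and 77.7 units at PL, the smallest spread within PL of the 24. Elsewhere it ranged from 2.80 to 30.5 units. LTBP2, a latent TGF-beta binding protein of microfibrils (XM_005656404.3, chromosome 7, 97744974 to 97852848), stood at 7.36, 24.7 and 27.5 units at PL and at 1.62 to 6.35 elsewhere. F3, tissue factor, the starter of blood coagulation (NM_213785.1, chromosome 4, 122827018 to 122837673), stood at 56.4, 106 and 100.1 units at PL. It was listed at 0 in 9 of the other 12 samples, including all 6 of gestation, and reached 11.1 units in EL 6, 8.41 in W2 3 and 0.502 in W2 6.

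SPP1, osteopontin, a phosphoprotein secreted into milk and matrix (NM_214023.1, chromosome 8, 131077786 to 131085334), stood at 98.9, 163 and 277 units at PL. Its lowest PL sample was 4.07 times the highest of the other 12, in which it ranged from 5.28 to 24.3 units. The EL samples of SPP1, at 10.4, 8.49 and 5.28 units, included the lowest of all. LGI4, a secreted protein needed by Schwann cells (XM_021097157.1, chromosome 6, 44655621 to 44663874), stood at 3.56, 18.4 and 14.0 units at PL and at up to 3.33 elsewhere, so PL 2 of LGI4 barely cleared the other stages.

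Lipid transcripts were 3, and PL 2 did not rank lowest in any of them. HMGCS1, the enzyme that makes HMG-CoA for cholesterol (NM_001252215.1, chromosome 16, 27936225 to 27957261), stood at 291, 90.3 and 42.2 units in PL 2, PL 3 and PL 6 and at 17.1 to 34.6 elsewhere. INSIG1, the sterol sensor that retains SREBP precursors (NM_001244521.1, chromosome 18, 2885494 to 2898758), stood at 114, 73.7 and 30.6 units in the same order and at 7.73 to 19.4 elsewhere. Both were highest in PL 2 and lowest in PL 6. CIDEA, a lipid droplet protein (NM_001112696.1, chromosome 6, 97253074 to 97268355), stood at 33.8, 35.6 and 2.56 units at PL. It was listed at 0 in 8 of the other 12 samples and did not exceed 0.472 units in the other 4. The 6 adipocyte markers measured summed to 256 to 392 units at PL and to 447 to 735 elsewhere, with RBP4 at 0 in every PL sample.

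The members nearest the limit of 4 times the next stage mean were LTBP2 at 4.03, INSIG1 at 4.21 and HMGCS1 at 4.63. Just outside it were LOC100513074 at 3.98, SYNM, an intermediate filament protein, at 3.97, and ACSL3, a fatty acid activating enzyme, at 3.91. LTBP2 was the member most often lost, in 4 of the 15 selections that left out 1 sample each. Scaling by median ratio raised the number of transcripts meeting the conditions to 57 and quantile normalization raised it to 53, and both selections held all 24. Without PL 2 the number was 87, of which 21 were among the 24. HMGCS1, INSIG1 and CSF2RA were lost without PL 2.

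**Figure D2:**
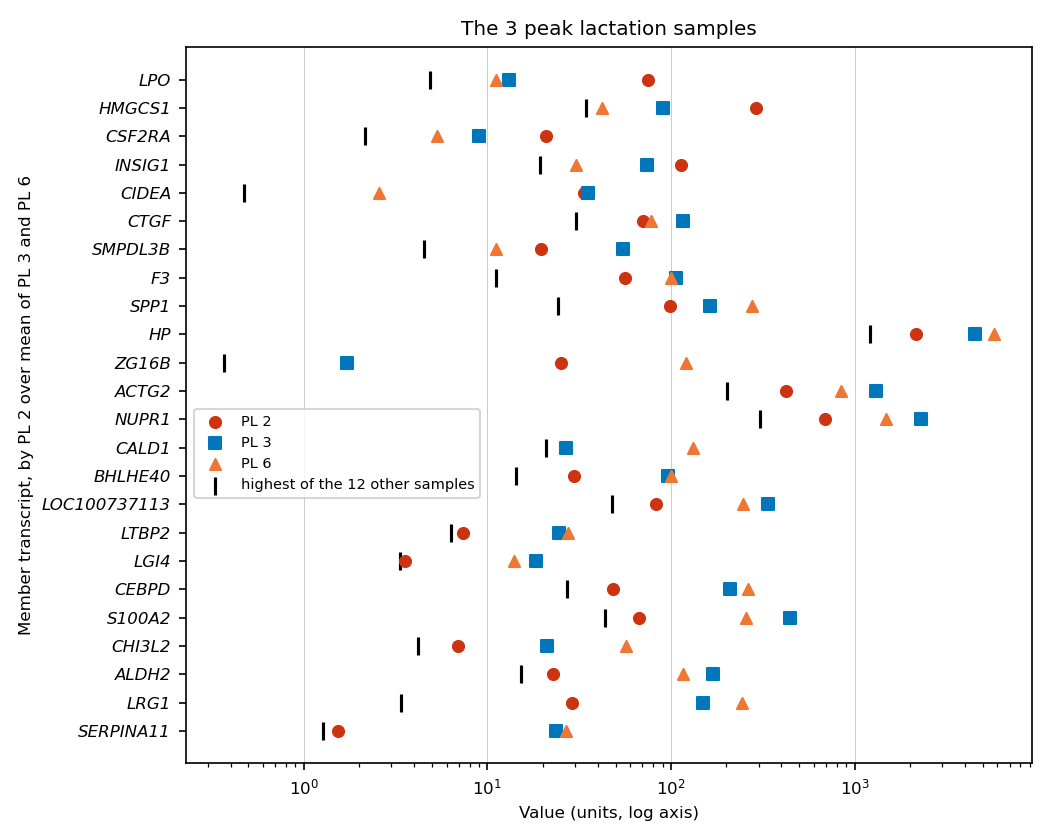
Points give the value (units, log axis) of each member in PL 2, PL 3 and PL 6, and the black mark gives the highest of the 12 samples of other stages. Members are ordered by PL 2 over the mean of PL 3 and PL 6, from SERPINA11 at the bottom to LPO at the top, and the gap between the black mark and the lowest point is narrowest for LGI4.

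Among the 3 PL samples, PL 2 was lowest for 17 of the 24 members and highest for 4 (HMGCS1, INSIG1, LPO and CSF2RA). Of the 4356 annotated transcripts with a PL mean of 10 units or more, PL 2 was lowest in 73.0% and highest in 12.2%. After median ratio scaling PL 2 was lowest for 15 members, against 46.5% of the 4356, and highest for 5, against 35.0%. The choice required each member's lowest PL sample to clear all other stages, so these shares are a description. Members varied widely within PL, from a highest sample 1.67 times the lowest for CTGF to 70.4 times for ZG16B.

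The conditions used the mean of the second stage without naming which stage it was, so the order below is a description. EL was second for 10 of the 24, W2 for 7, MG for 5 and LG for 2. Among the 4356 transcripts, EL was the highest stage outside PL in 11.0% and W2 in 53.0%. This order moved with the scaling: after median ratio scaling EL was second for 15 members and for 29.4% of the 4356 transcripts. The 10 with EL second were HP, NUPR1, HMGCS1, F3, BHLHE40, INSIG1, CALD1, LPO, SMPDL3B and CSF2RA. The lowest stage was EL for 8 members, including SPP1, ALDH2 and LTBP2, and W2 for 6, including HP, NUPR1 and LPO.

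Comparisons that leave PL out set the values of the members at the other stages against each other. The choice of members also used these values, since each had to lie below the member's lowest PL sample. That limits how far a member could rise at another stage, so the members' counts and p-values here and below are a description. A transcript was called when its Benjamini-Hochberg adjusted p from limma over all 61773 transcripts was below 0.05 and its log2 difference was 2 or more in size. No member was called between LG and MG, where 0.0162% of all transcripts were called and where 1 member and 4.42% of all transcripts had an unadjusted p below 0.05. None was called between EL and gestation (the mean of MG and LG; 0.0194% of all), with 3 members and 6.56% of all below 0.05 unadjusted. None was called between W2 and gestation (0.0356% of all), with 2 members and 4.83% below 0.05. None was called between W2 and EL (0.0631% of all), where 5 members and 11.4% of all were below 0.05 unadjusted. All 5 stages shared 1 fit, so the spread within PL entered the standard errors of these comparisons. Leaving out PL 2 took the members below 0.05 unadjusted for EL against gestation from 3 to 9, and all transcripts from 4052 to 5829. Leaving out PL 3 or PL 6 gave 3 and 4 members. Exact permutation was run only on members with an unadjusted limma p below 0.05 or among the 3 largest differences of a comparison. Its p-values are unadjusted and cannot fall under 0.1 for 3 samples against 3, or under 0.024 for 3 against 6.

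HP gave the largest difference in size in the 3 comparisons other than LG against MG. W2 lay below EL by 4.30 (log2(value + 0.5), W2 minus EL -4.30, SE 0.73) and the groups did not overlap, with a limma adjusted p of 0.064 and an exact two-sided permutation p of 0.1. EL minus gestation was 2.19 (SE 0.63, adjusted p = 0.51, exact permutation p = 0.024), and each EL sample lay above each of the 6 gestation samples. W2 minus gestation was -2.11 (SE 0.63, adjusted p = 0.65), with W2 6 at 74.4 units just above MG 6 at 72.4. LG minus MG was 0.63 (SE 0.73), which turned to -0.09 without LG 3, the sample at 619 units. HP passed the threshold for W2 against EL after median ratio scaling (adjusted p = 0.048), without MG 1 (0.040), without LG 3 (0.045) and without PL 2 (0.045).

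NUPR1 followed the same order. W2 minus EL was -2.69 (SE 0.44, limma adjusted p = 0.058), without overlap. EL minus gestation was 1.54 (SE 0.39, adjusted p = 0.41), and W2 minus gestation was -1.15 (SE 0.39, adjusted p = 0.78) with all W2 samples below all 6 gestation samples. LG minus MG was 1.15 (SE 0.44, adjusted p = 0.97). NUPR1 passed the threshold for W2 against EL with low values filtered out (adjusted p = 0.049), after quantile normalization (0.023), after median ratio scaling (0.026), without LG 3 (0.040), without PL 2 (0.024) and without PL 3 (0.0498).

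The other differences named here were those of 7 members. SPP1 was 1.28 higher at W2 than at EL (SE 0.46, limma adjusted p = 0.34), with no overlap, and LTBP2 was 1.06 higher (SE 0.45, adjusted p = 0.40), also with no overlap. LPO was -1.86 at W2 relative to EL (SE 0.76, adjusted p = 0.38), and its groups overlapped. SMPDL3B was 1.21 higher at EL than in gestation (SE 0.44, adjusted p = 0.64), with each EL sample above all 6 of gestation. F3, listed at 0 in all of gestation, was 1.51 higher at EL (SE 0.99, adjusted p = 0.76) and 1.72 higher at W2 (SE 0.99, adjusted p = 0.89), and both values rest on 1 or 2 samples. CALD1 was -1.27 at W2 relative to gestation (SE 0.95, adjusted p = 0.92), and CHI3L2 was 0.90 higher at LG than at MG (SE 0.93, adjusted p = 1). None of these 7 passed the threshold, which does not show that the stages were alike.

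**Figure D3:**
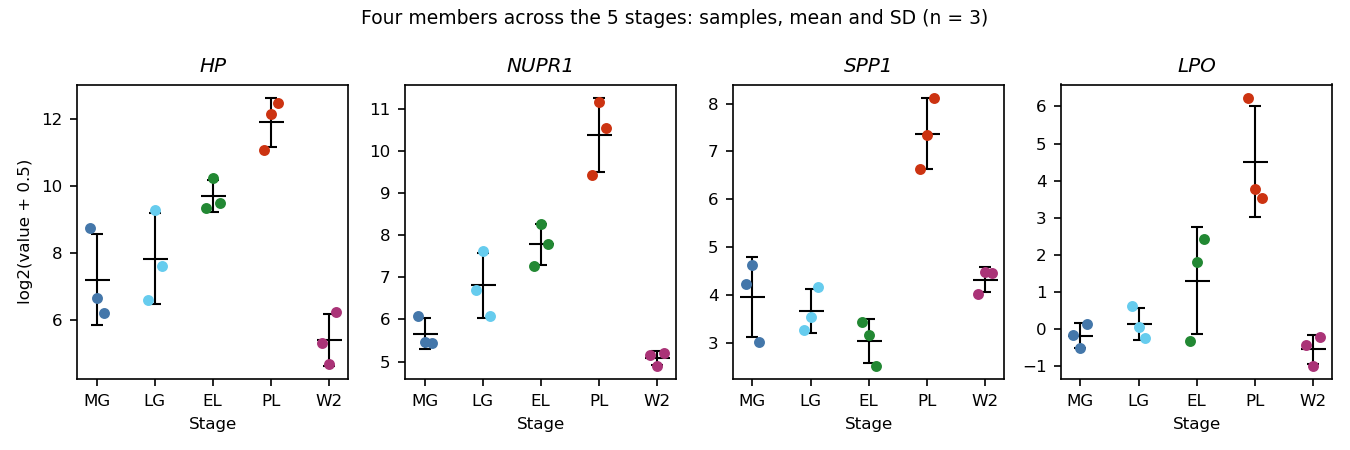
Points are single samples of HP, NUPR1, SPP1 and LPO on the log2(value + 0.5) scale, with the mean and SD (n = 3) at each of the 5 stages. HP and NUPR1 lie lower at W2 than at EL, with differences of -4.30 and -2.69, while SPP1 is 1.28 higher at W2 than at EL, and the limma adjusted p-values of these differences lie above 0.05.

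Other annotated transcripts of the same genes were screened by the same conditions and failed at least 1 of them, so the values below are a description. For 16 of the members the table held 1 annotated transcript of the gene, and for 8 it held more. The sum over all annotated transcripts of the gene was highest in all 3 PL samples for 23 of the 24, and for 7 of the 8 genes with more than 1. Since each sum contains the member, this says little by itself. Of all gene sums 1.11% stood highest in the 3 PL samples, and 0.907% of those of genes with 2 or more transcripts. With the member taken out, the rest of the gene was highest in all 3 PL samples for 1 of the 8, CIDEA, whose second transcript stood at 4.57, 2.95 and 0.768 units at PL and was listed at 0 in the 12 other samples.

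Several rests had their highest mean at PL without clearing every sample. The second HP transcript, XM_005664359.2, stood at 18.8, 406 and 134 units at PL, with EL 4 at 38.8 above PL 2. HMGCS1 had a second transcript, XM_005657612.3, at 76.1, 40.8 and 10.4 units at PL, and 5.96 to 13.9 elsewhere, so that PL 2 was again highest and PL 6 lay within the range of other stages. In LTBP2 the member made up 39.3% of the gene at PL and 91.9% to 100% in the other stages. The remaining 5 LTBP2 transcripts summed to 0 in PL 2 and were seen almost only in PL 3 and PL 6, where XM_021099519.1 held 39.8 and 3.92 units.

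CALD1, caldesmon, which binds actin in smooth muscle and other cells (chromosome 18, 14267955 to 14486641), was the exception among the sums. Its member, XM_021079169.1, stood at 26.7, 26.9 and 132 units at PL and at 0.434 to 21.0 elsewhere. The most abundant transcript of the gene outside PL, XM_021079172.1, was lower at PL than in every other sample, at 21.0, 11.6 and 31.4 units against 38.7 to 93.8. The member made up 1.36% of the gene at W2, 4.50% at MG, 7.36% at LG, 13.0% at EL and 52.2% at PL. The gene sum at PL was 119 ± 83.9 units (SD, n = 3) and 1.25 times that of W2. How StringTie divides reads among the 14 CALD1 transcripts in the table, which overlap, bears on these shares and was not tested.

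**Figure D4:**
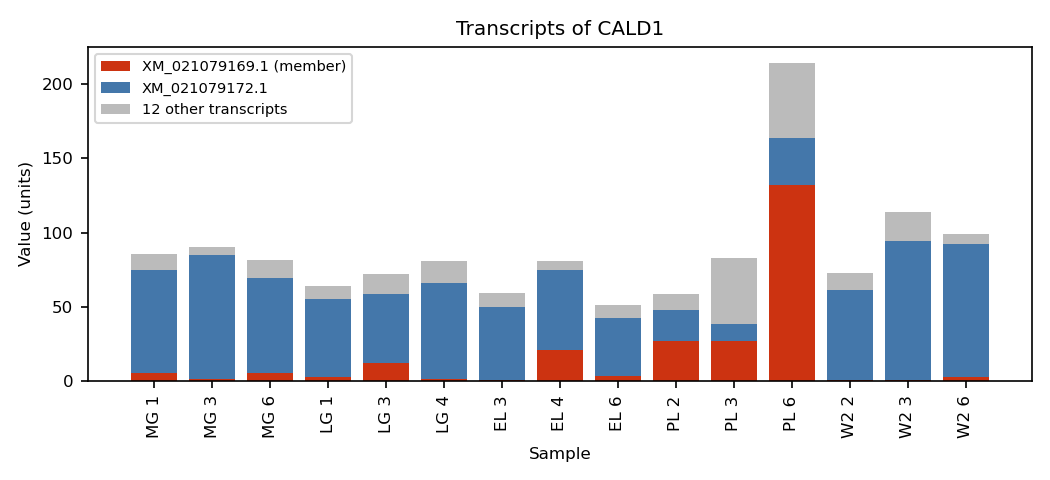
Stacked bars give the units of the annotated CALD1 transcripts in each counted sample, with the member in red, XM_021079172.1 in blue and the rest in grey. The red part reaches 26.7, 26.9 and 132 units at PL, while the blue part is lowest there.

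The 24 genes were spread over 12 chromosomes and 1 unplaced sequence, with 4 genes each on chromosomes 4 and 6. The nearest pair on a chromosome, INSIG1 and CALD1, lay 11369197 bases apart. Their median span was 11960.5 bases, against 23911 bases for the 14644 genes with an annotated transcript in the table.

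Other genes of the same pathways were compared between PL and the mean of the other 4 stages, as sums of annotated transcripts and without the members. Of all 14644 genes 0.751% were called higher at PL and 2.45% lower (limma, adjusted p below 0.05 and a log2 difference of 2 or more in size), and the median of all genes was -0.50 on the log2 scale. After median ratio scaling the 110 higher and 359 lower calls became 173 and 187, with a median of -0.06. Among 189 pathway genes, 12 were called higher and 3 lower. The lists were drawn up with earlier results of these data known. Their counts and p-values, here and below, are thus a description and no independent support for the choice of members.

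Antibacterial milk defence held the most calls, with 6 of 15 genes higher, none lower and a median of 1.46. LCN2, lipocalin 2, which withholds iron from bacteria, stood at 9.43, 1122 and 1647 units at PL, and no other sample exceeded 25.2 (difference 3.80, SE 1.07, limma adjusted p = 0.014). CHI3L1, a chitinase-like protein, stood at 22.0, 2075 and 1466 units at PL (2.72, SE 0.98, adjusted p = 0.042). DEFB1, a beta-defensin, was listed at 0 in PL 2 and stood at 85.8 and 39.7 units in PL 3 and PL 6 (3.83, SE 1.10, adjusted p = 0.015). For these 3 genes PL 2 lay among the other stages while PL 3 and PL 6 lay far above them.

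S100A8, S100A9 and S100A12, calcium-binding proteins abundant in neutrophils, were the other calls of that list. S100A9 stood at 1.93, 7.86 and 13.9 units at PL and at no more than 0.640 elsewhere (3.48, SE 0.41, limma adjusted p = 8.5e-05). S100A8 stood at 3.50, 2.69 and 12.7 units (3.41, SE 0.32, adjusted p = 2.1e-05), and S100A12 at 3.66, 4.96 and 19.8 units (3.46, SE 0.52, adjusted p = 0.00039). All 7 measured neutrophil markers, these 3 S100 genes among them, summed to 10.8 to 50.2 units at PL and to 3.37 to 10.1 elsewhere. The S100 genes held most of that sum in each PL sample. The neutrophil markers CSF3R, ELANE and ITGAM were not called, with differences of -0.49, -0.66 and -1.23. The part of neutrophils in the values of CSF2RA, CHI3L2 and the other defence members was not tested.

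Acute-phase and complement genes gave 3 calls of 15, all higher, with a median of 0.00. Complement C3 stood at 75.2, 1382 and 1461 units at PL and at no more than 95.8 elsewhere (3.35, SE 0.69, limma adjusted p = 0.0028). CD14, the coreceptor for bacterial lipopolysaccharide, stood at 9.23, 234 and 298 units (3.81, SE 0.73, adjusted p = 0.0018). CP, the copper-carrying ceruloplasmin, stood at 0.188, 30.3 and 19.5 units (3.59, SE 0.84, adjusted p = 0.0057). In C3, CD14 and CP, PL 2 again did not clear the other stages. The other 12 genes were not called, among them C1R, C1S and ITIH4. The 3 hepatocyte markers measured summed to 2.25 to 14.9 units at PL and to 0.254 to 52.0 elsewhere, with TTR at 0 in every PL sample.

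IL-17 and NF-kappaB target genes gave 2 higher calls of 12, with a median of 0.52. CXCL2, a neutrophil-attracting chemokine, stood at 8.17, 8.62 and 9.00 units at PL and at no more than 3.03 elsewhere (2.64, SE 0.54, limma adjusted p = 0.0026). SOD2, the mitochondrial superoxide dismutase, stood at 30.3, 833 and 733 units (2.37, SE 0.72, adjusted p = 0.020). CXCL2 was even across the PL samples and SOD2 was not. Of the 12 higher pathway genes, PL 2 lay above every sample of other stages in 5 and not in 7, and PL 3 and PL 6 both did so in 11. Without PL 2 the higher calls were 3 in the acute-phase list, 6 in the antibacterial list and 3 in the IL-17 and NF-kappaB list.

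Milk-making lists gave few calls, but only 0.751% of all genes were called higher, so low counts in lists of this size say little. Their medians ran from -0.59 (prolactin and STAT5 targets) to 0.44 (folding in the endoplasmic reticulum), against -0.50 for all genes. After median ratio scaling they ran from -0.10 (secreted proteases and inhibitors) to 1.00 (folding), against -0.06. In milk fat synthesis 0 of 30 genes were called higher (limma; median -0.08), and GPAM, which starts triglyceride synthesis, was called lower, listed at 0 in PL 2 and PL 6 and at 47.5 units in PL 3. SCD, the stearoyl-CoA desaturase, stood at 561, 184 and 95.4 units at PL (1.60, SE 0.40, adjusted p = 0.0076), short of the required difference of 2. Amino acid transport and serine synthesis gave 1 of 23, SLC6A14, a transporter of neutral and cationic amino acids, at 393, 206 and 211 units (2.89, SE 0.62, adjusted p = 0.0034). Prolactin and STAT5 targets gave 1 lower call of 14, TNFSF11 (RANKL, the growth signal of alveoli, -2.11, SE 0.42, adjusted p = 0.0022). Ion, phosphate and vitamin transport gave 1 lower call of 25, SLC5A5, the iodide transporter (-2.39, SE 0.47, adjusted p = 0.0019). None was called of 16 lactose and glucose genes, 17 secreted proteases and inhibitors or 24 genes of folding in the endoplasmic reticulum. After median ratio scaling, milk fat synthesis had 4 higher calls and 1 lower, antibacterial defence 8 higher, and TNFSF11 and SLC5A5 were no longer called.

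Markers of the remaining cell types gave 2 calls beyond the S100 genes. CD163, a scavenger receptor of macrophages, was called lower (-2.12, SE 0.59, limma adjusted p = 0.013) but not after median ratio scaling or quantile normalization, and the 8 macrophage markers summed to 138 to 223 units at PL and 222 to 529 elsewhere. MYH2, a myosin of skeletal muscle, was called higher at 2.70, 11.7 and 13.0 units at PL (3.27, SE 0.40, adjusted p = 9.7e-05), and with the only other muscle marker measured it summed to 3.10 to 14.7 units at PL and 0.101 to 0.960 elsewhere. The sums at PL and elsewhere were 8.16 to 22.6 and 20.5 to 40.9 units for T cells, and 723 to 913 and 391 to 2900 for B and plasma cells. They were 490 to 1121 and 875 to 2685 for fibroblasts, and 85.4 to 130 and 110 to 199 for endothelial cells. They were 971 to 2175 and 1455 to 2378 for luminal cells, and 2.32 to 14.6 and 4.15 to 394 for keratinocytes.

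**Figure D5:**
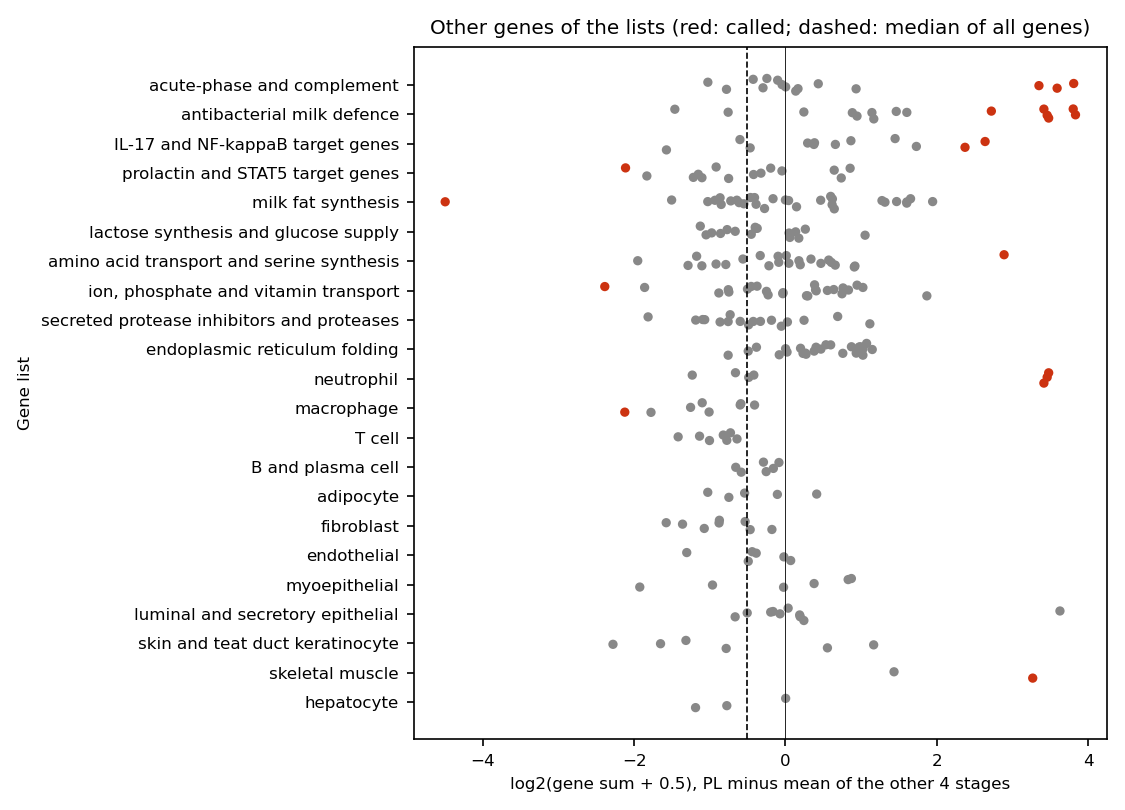
Each point is 1 gene of a list, without the members, placed by log2(gene sum + 0.5) at PL minus the mean of the other 4 stages. Red points passed the threshold (limma), and the dashed line marks the median of all 14644 genes, -0.50. The red points to the right lie mainly in the acute-phase, antibacterial and neutrophil lists, the last of which shares its 3 S100 genes with the antibacterial list.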

How the data were processed

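Per the labels and the study's methods, reads were checked with FastQC, trimmed with Trimmomatic and mapped to Sscrofa11.1 by HISAT2, and StringTie gave assembled transcripts and their levels. They name RUVs for unwanted variation, and whether the deposited values include it is not given in the sources used here. The authors name the deposited unit FPKM, yet every sample has the total of TPM values, so TPM was used as the unit.

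The members and lists were chosen with earlier results of these data known. Genes were matched by RefSeq accession (32396 transcripts, 14644 genes). Values were analysed as log2(value + 0.5) with limma 3.58.1 in R 4.3.3, 5 stages in 1 fit, trended variance and Benjamini-Hochberg adjustment over all features, after tests on simulated data. Single members picked from these same comparisons were also tested by exact permutation (two-sided, unadjusted). Named were all members in a list, the 15 most abundant, the 10 with the highest ratio, those at the limit, and the 3 with the largest difference in each comparison without PL, and the others were added for completeness. Alternatives were other pseudocounts, a low-value filter, 2 scalings, all 6 samples per stage, the replicate number as a block, other limits and each sample left out. No batch is named in the sources used here, and no sequences were analysed. Some list genes are not reported here.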

Additional observations from a re-analysis of the deposited data

Results flagged for a closer look

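Transcripts assembled by the authors without an annotated identifier lay outside the choice of members, and 29 of the 29047 assembled transcripts met the same 3 conditions at PL. They came from 23 loci, with up to 4 from 1 locus, and had PL means of 10.6 to 2699 units with a median of 19.8. The table gives them no gene name or position, so they could not be tied to the members.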

How the results depend on the processing

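The number of transcripts meeting the conditions was 24, and it became 57 with median ratio scaling, 53 with quantile normalization and 37 with a PL mean of 5 units or more. Leaving out 1 sample gave 23 to 87, with the highest without PL 2. With the member taken out of its gene sum, 1 sum was highest in all PL samples, and leaving out 1 sample left that count at 23 with the member in. Members called in comparisons without PL were 0, and became 1 for EL against gestation (F3) and 2 for W2 against gestation (HP and F3) with all 6 samples per stage. For W2 against EL they became 1 (NUPR1) with low values filtered out, 1 with quantile normalization, 2 (HP and NUPR1) with median ratio scaling, 2 with all 6 samples, and 0 to 2 when 1 sample was left out. With all 6 samples, 1480 to 3262 transcripts were called where 10 to 39 had been; this setting raises n from 3 to 6 and adds near-identical samples, and their parts were not separated. HP for LG against MG was -0.095 without LG replicate 3, and -0.095 to 1.41 over all samples left out in turn. The 17 list and marker genes called became 15 to 23 under the alternatives. Deviations of same-numbered samples of different stages correlated above 0.1 in 7 of 19 pairs (mean r 0.009, -0.14 to 0.17) and those of other samples in 14 of 71, so the numbers were not taken to pair samples. The samples numbered 3 of MG, EL, PL and W2 correlated at 0.080 to 0.14, and LG 3 ran the other way. Every pair above 0.1 lay within 1 of 3 sets that cross all stages. The first was MG 1, LG 3, EL 4, PL 6 and W2 6. The second was MG 3, LG 4, EL 3, PL 3 and W2 3, and the third MG 6, LG 1, EL 6, PL 2 and W2 2. The labels name no such sets, no fit used them, and a link between their samples was not tested. Replicate numbers follow these sets only in part. A fit with the replicate number as a block called 0 members in each of the 4 comparisons, 4, 1, 2 and 4 transcripts in all (LG against MG, EL against gestation, W2 against gestation, W2 against EL) and 19 list and marker genes. No batch is named, and reads per transcript were not used here.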
